A study of Mus musculus with 8 samples.

Results

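Interferon-stimulated genes, the antiviral effectors that cells switch on when they sense interferon, were compared between the limbal rim and the corneal button of the mouse eye. The group was a list of 38 gene symbols, and a member was any row of the deposited table named by 1 of those symbols. Of the 38 genes, 37 had a row among the 23420 rows that name a gene, and all 37 had more than 3 reads in both tissues. Ifi27, an interferon-induced mitochondrial protein, had no row under that symbol. RefSeq gives Ifi27 as a synonym of Ifi27l1, with 1582 cornea and 1951 limbus reads, and of Ifi27l2a, with 89 and 310, but neither row was counted as a member.

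Both tissues came from 8-week-old wild type C57BL/6J mice, untreated as far as the labels and methods say. The limbal rim is the ring between cornea and conjunctiva that houses the corneal epithelial stem cells, and the corneal button is the central disc left inside it. A surgeon dissected 16 eyeballs, and the rims and the buttons were pooled by tissue before RNA was extracted. The labels list 4 samples per tissue, numbered as sequencing lanes are, but the table resolves into 1 library per tissue, so every comparison here is 1 pool against 1 pool with no replicate check. Each value is therefore given as the reads of the cornea library, then those of the limbus library. The log2 ratio is that of limbus over cornea after scaling by size factors, and its 95% exact interval covers counting error only.

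Type I and type III interferons signal through their receptors to the kinases Jak1 and Tyk2, which activate a complex that contains Stat2 and Irf9. That complex binds the interferon-stimulated response element (ISRE) in the promoters of its target genes. Type II interferon acts mainly through the gamma-activated site (GAS). The proteins made in response detect viral RNA, degrade or sequester it, block entry or budding of virus, or feed back on the signal. Many of these genes are also transcribed at a low level without infection.

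The sequence features that members share were read from RefSeq promoter windows of GRCm38, which run from 250 bases before each transcription start to 50 bases from the start on. A window was available for 27 of the 38 genes, and none was used for Tap2, Parp9, Mx2, Usp18, Parp14, Dhx58, Rtp4, Oas2, Ifi27, Mx1 and Zbp1. The ISRE core was searched as GAAANNGAAA on both strands, and 15 of the 27 genes (55.6%) held it against 3.99% of all 27025 genes with a window. The GAS core, TTCNNNGAA, which reads the same on both strands, was found in 8 of 27 (29.6%) against 9.55% of all genes. The motifs were counted separately, and their bases can overlap. A match describes letters in a window and is not a measured binding site.

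The windows around the ISRE cores are shown for members called higher in the limbus (Bst2, Ifitm2) or the cornea (Ifit1, Rsad2, Oas3), for the neighbours of Ifit1 and within the Gbp cluster whose ratios are set side by side below, and for Isg15, which had the most cores of the sequences shown. Each is printed 5′ to 3′ on the strand of the gene, and capitals mark the tetramers, GAAA or, where the core lies on the other strand, TTTC.
Bst2, chr8:71537575-71537614, minus strand: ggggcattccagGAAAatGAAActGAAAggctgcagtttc
Ifitm2, chr7:140955986-140956019, minus strand: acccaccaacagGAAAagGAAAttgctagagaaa
Ifit3, chr19:34583361-34583428, plus strand: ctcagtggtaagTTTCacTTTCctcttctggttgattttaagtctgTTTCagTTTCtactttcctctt
Ifit1, chr19:34640773-34640825, plus strand: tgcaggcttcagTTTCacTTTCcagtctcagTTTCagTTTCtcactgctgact
Rsad2, chr12:26456551-26456584, minus strand: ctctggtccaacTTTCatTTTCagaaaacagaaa
Oas3, chr5:120777713-120777746, minus strand: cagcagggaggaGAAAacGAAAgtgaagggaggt
Gbp3, chr3:142559987-142560026, plus strand: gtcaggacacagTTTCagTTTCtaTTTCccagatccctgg
Gbp2, chr3:142620592-142620625, plus strand: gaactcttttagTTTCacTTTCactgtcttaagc
Gbp7, chr3:142530271-142530304, plus strand: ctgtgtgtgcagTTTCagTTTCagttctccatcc
Isg15, chr4:156200863-156200908, minus strand: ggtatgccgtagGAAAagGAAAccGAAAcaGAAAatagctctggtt

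Members with an ISRE core lay on both sides of the comparison. Their log2 ratios ran from -1.29 for Rsad2 to 1.17 for Bst2 with a median of -0.16. The 12 members with a window and no core ran from -0.70 for Xaf1 to 1.31 for Ifitm1 with a median of -0.07. The overlapping cores of Bst2 lie between 130 and 115 bases before its start, and the separate cores of Ifit1 between 104 and 76 bases before its start. These genes lay on the 2 sides of the comparison.

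A gene was called higher in a tissue when its ratio reached 1.5-fold and its counting interval excluded 0 on the log2 scale. By that rule 4 of 37 members (10.8%) were called higher in the limbus, Mx2, Ifitm1, Bst2 and Ifitm2, against 21.1% of all 15572 genes tested. A further 4 (10.8%) were called higher in the cornea, Oas3, Xaf1, Ifit1 and Rsad2, against 18.4% of all genes. The other 29 were called in neither direction, and 14 members lay within 1.2-fold either way. The median log2 ratio of the members was -0.09 and that of all tested genes 0.01, and the quartiles of the members were -0.42 and 0.25. Over the 13862 genes that passed 3 reads in each library the median was -0.05 and the quartiles were -0.51 and 0.46. Of the 37 members, 17 (45.9%) had more normalized reads in the limbus, against 50.6% of all genes. Scaling to total reads in place of size factors added 0.21 to every log2 ratio and moved that split to 62.2% of members against 61.6% of all genes. With that scaling 7 members were called higher in the limbus, against 26.2% of all genes, and 2 in the cornea, against 12%. Centred on the median of the 13862 genes that passed 3 reads in each library, the counts were 7 against 22.3% and 3 against 16.5%. At 2-fold 3 and 1 members were called, against 15.8% and 7.83% of all genes, and at any fold whose interval excluded 0 there were 12 and 16, against 34% and 36.5%. With size factors and the 1.5-fold rule, the shares of members called, in each direction, were below those of the whole table, and the members' split followed that of the table under both scalings.

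**Figure D1:**
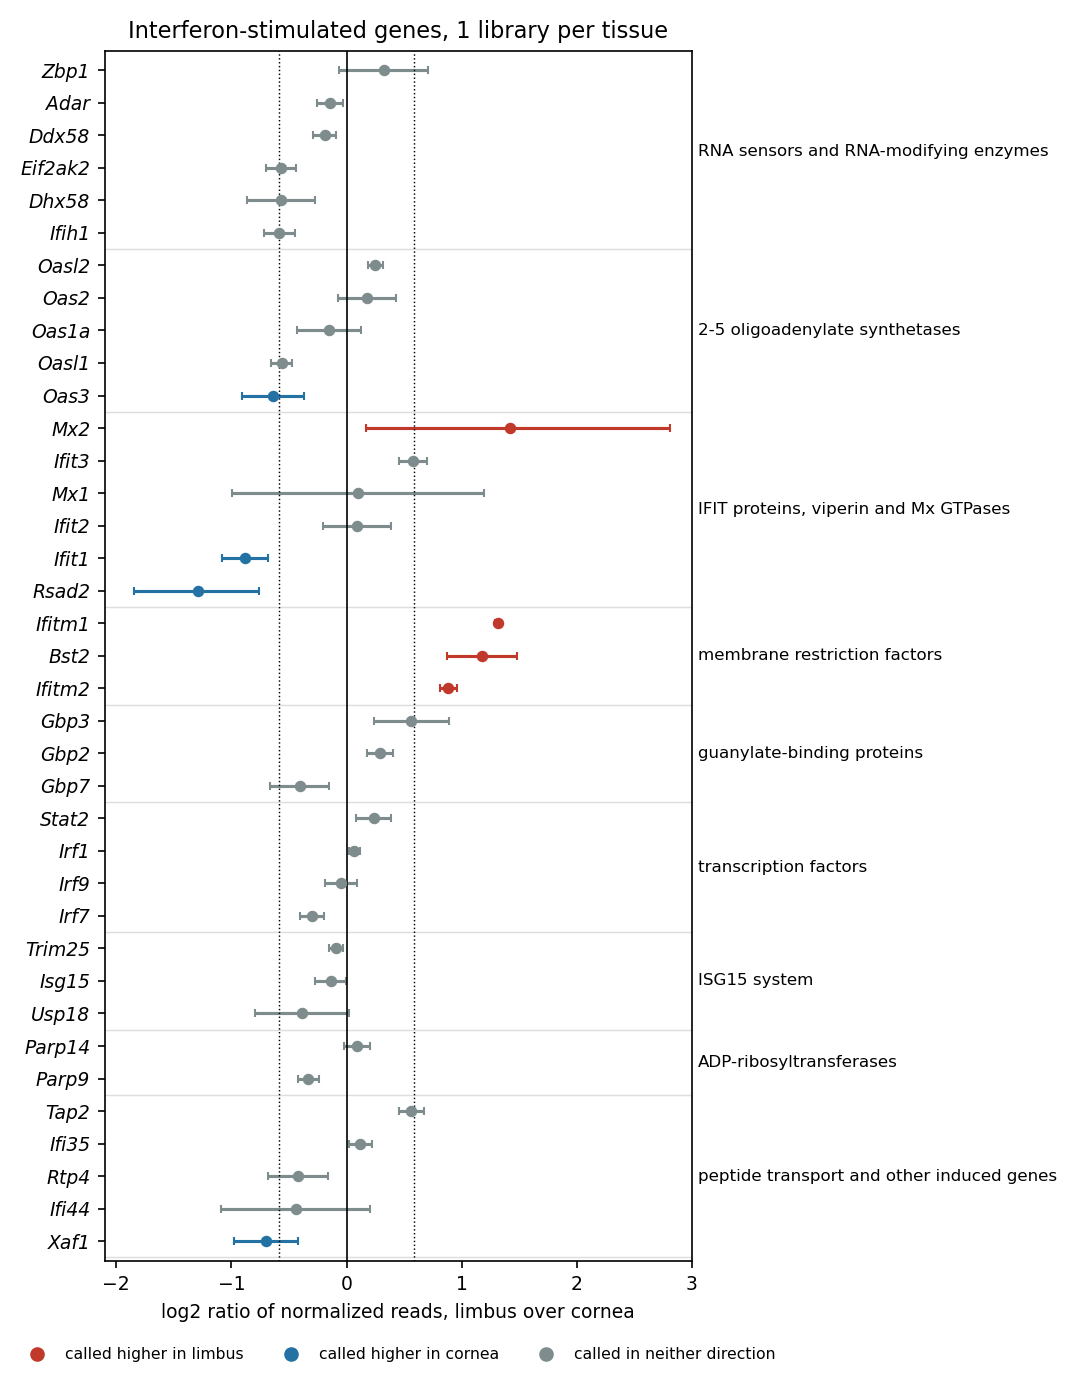
Log2 ratio of normalized reads, limbus over cornea, of the 37 measured interferon-stimulated genes, grouped by role, with 1 library per tissue. Points are ratios, bars are 95% exact intervals for counting error, dotted lines mark 1.5-fold, red marks genes called higher in the limbus, blue those called higher in the cornea, and grey marks those called in neither direction. The 3 membrane restriction factors lie to the right of the upper dotted line, while most other roles straddle 0.

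Summed over the members, the cornea library held 64892 reads and the limbus library 91618, which is 0.249% and 0.433% of all reads on named genes. Most of that gap was carried by Ifitm1 and Ifitm2, which took 36.8% of the members' cornea reads and 59.2% of their limbus reads. Without them the sums were 41015 and 37385 reads, a log2 ratio of -0.04 after scaling, and the median of the remaining 35 was -0.14. The summed signal of the group was thus set by a pair of genes and its median by the rest.

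**Figure D2:**
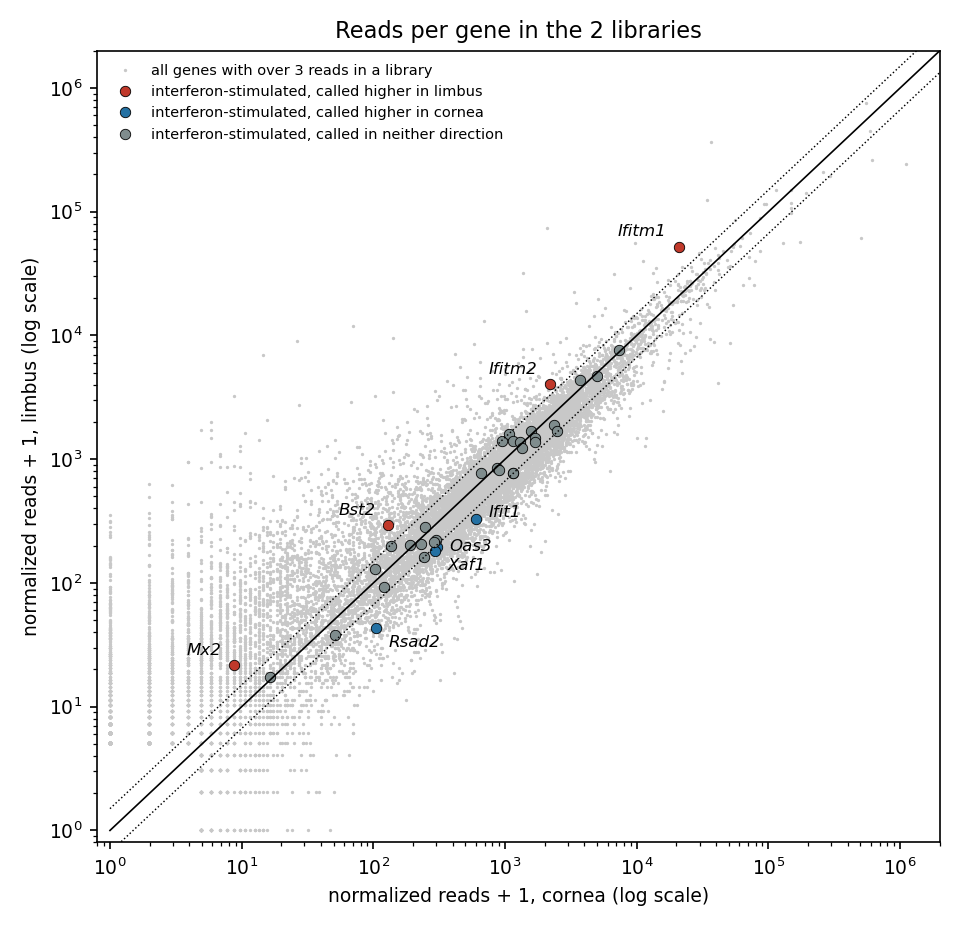
Normalized reads plus 1 in the cornea (horizontal, log scale) and limbus (vertical, log scale) for the 15572 genes tested, in grey, and the 37 interferon-stimulated genes, in colour. The solid line is equality and the dotted lines are 1.5-fold; Ifitm1 and Ifitm2 stand at the upper right above the lines, Rsad2 and Ifit1 below them, and most members between them.

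The membrane restriction factors were the only role in which every member was called in 1 direction, with 3 of 3 higher in the limbus, against 21.1% of all genes. The other scalings run each moved every ratio towards the limbus, so they could not remove these calls. Ifitm1 and Ifitm2 encode small membrane proteins that hinder the fusion of viral with cellular membranes. Ifitm1 (chr7:140967221-140969825) had 21623 cornea and 50338 limbus reads, a log2 ratio of 1.31 (1.29 to 1.34). Ifitm2 (chr7:140954837-140955987) had 2254 and 3895 reads, a log2 ratio of 0.88 (0.81 to 0.96), and shares exonic bases with Gm45717 on the same strand. Both were higher in the limbus, and the ratio of Ifitm1 exceeded that of Ifitm2 by 0.43 (0.35 to 0.51), a difference between 2 genes of the same libraries that does not depend on the scaling. Bst2 (chr8:71534255-71537456), whose product tetherin holds budding virions at the cell surface, had 133 cornea and 281 limbus reads, a log2 ratio of 1.17 (0.87 to 1.48). Its window carries the overlapping ISRE cores printed above, as does that of Ifitm2 with a single core, whereas the window of Ifitm1 held none.

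Markers of other cell types were also higher in the limbus library, and fewer cells of a type and less RNA per cell cannot be told apart in pooled tissue. The list of leukocyte markers summed to 7230 cornea and 14967 limbus reads, with 7 of its 8 testable genes called higher in the limbus. Itgam alone held 6003 and 8793 of these reads, while Ptprc had 30 and 72. The plasmacytoid dendritic cell list, which itself contains Bst2, summed to 746 and 1320 reads with 5 of 5 called higher in the limbus. Blood endothelial markers summed to 200 and 2445 reads with 6 of 6 called, and Kdr held 170 and 278 of these reads. Conjunctival and limbal epithelial keratins and mucin summed to 76877 and 577932 with 5 of 5 testable genes called. The part of these cells in the values of Bst2, Ifitm1 and Ifitm2 was not tested. The corneal epithelial factor Pax6, at 18145 cornea and 10507 limbus reads, and the keratocyte proteoglycan Kera, at 12119 and 1423, were both higher in the cornea. Krt14 of the corneal epithelial list and Col1a1 and Dcn of the keratocyte list were called towards the limbus. Markers of lymphatic endothelium (3 of 4), melanocytes (5 of 5), skeletal muscle (5 of 5) and corneal endothelium (3 of 4) were called higher in the limbus too. The corneal epithelial list had 4 of 6 genes called towards the cornea and 1 towards the limbus, and the keratocyte list 2 each way of 5.

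The effectors that act inside the infected cell divided between the tissues. Rsad2 (chr12:26442746-26456452), which encodes viperin, an enzyme that makes a chain-terminating nucleotide, had 107 cornea and 41 limbus reads. Its log2 ratio of -1.29 (-1.84 to -0.76) was the lowest of the members, and it was the only one called at least 2-fold higher in the cornea. Ifit1 (chr19:34640871-34650009), whose product binds viral RNA that lacks host cap methylation, had 626 and 318 reads, a log2 ratio of -0.88 (-1.08 to -0.68). Both were called higher in the cornea under each scaling run. Mx2 had 8 cornea and 20 limbus reads and Mx1 16 and 16, for log2 ratios of 1.42 (0.17 to 2.81) and 0.10 (-0.999 to 1.19). The Mx family encodes dynamin-like GTPases that trap viral components, and whether the alleles of this strain give active protein was not tested. With so few reads the difference between Mx2 and Mx1, 1.32 (-0.40 to 3.09), was within counting error.

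Within the Ifit cluster on chromosome 19, the 3 neighbours had 3 different ratios. Ifit3 (chr19:34583531-34588731), which stabilises Ifit1 in RNA-binding complexes, had 976 cornea and 1362 limbus reads, a log2 ratio of 0.58 (0.46 to 0.70). With size factors it fell just short of 1.5-fold, and under each other scaling run it was called higher in the limbus. Ifit2 had 195 and 194 reads, with a log2 ratio of 0.09 (-0.21 to 0.38). The ratio of Ifit3 exceeded that of Ifit1 by 1.46 (1.23 to 1.69) and that of Ifit2 by 0.49 (0.17 to 0.81), and Ifit2 exceeded Ifit1 by 0.97 (0.61 to 1.33). The 2 libraries thus held these paralogs in unequal proportion, whichever scaling is used. Ifit1 and Ifit3 each have a pair of ISRE cores in the windows printed above, and the part of the cores in these ratios was not tested. Ifit3b, a close copy of Ifit3, had no row in the table, so how reads shared by the copies were placed is uncertain.

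The 2-5 oligoadenylate synthetases make the messenger that switches on RNase L, which cuts RNA, and Oasl1 and Oasl2 are members of the family known for other antiviral roles. Of the 5 genes, 1 was called higher in the cornea, against 18.4% of all genes, and none in the limbus, against 21.1%. Their median log2 ratio of -0.16 turned to 0.05 with total-read scaling. Oas3 (chr5:120753098-120777661) had 312 cornea and 188 limbus reads, a log2 ratio of -0.64 (-0.90 to -0.37). It lost its call when scaled to total reads, and also when centred on the median of genes over 3 reads in both libraries. Its neighbours Oas2, with 256 and 271 reads, and Oas1a, with 238 and 200, had log2 ratios of 0.18 (-0.07 to 0.43) and -0.16 (-0.43 to 0.12). Oas2 exceeded Oas3 by 0.81 (0.44 to 1.18) and Oas1a exceeded Oas3 by 0.48 (0.09 to 0.87), while Oas2 and Oas1a did not differ beyond counting error, at 0.33 (-0.05 to 0.71). Oasl1 had 2573 and 1630 reads, with a log2 ratio of -0.56 (-0.65 to -0.47), and the adjacent Oasl2 had 3824 and 4256 reads and 0.25 (0.19 to 0.31). The gap between those adjacent genes was 0.81 (0.70 to 0.92), with the intervals of the genes on opposite sides of 0.

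The guanylate-binding proteins are large GTPases, induced mainly by interferon-gamma, that attack the vacuoles and membranes of intracellular microbes. None of the 3 members was called in either direction, against 21.1% (limbus) and 18.4% (cornea) of all genes. Gbp3 had 139 cornea and 192 limbus reads, a log2 ratio of 0.56 (0.24 to 0.89). Gbp2 had 1185 and 1354 reads, a log2 ratio of 0.29 (0.17 to 0.40). Gbp7, at the other end of the same cluster on chromosome 3, had 306 and 216 reads, a log2 ratio of -0.41 (-0.66 to -0.15). Gbp3 exceeded Gbp7 by 0.97 (0.55 to 1.39) and Gbp2 exceeded Gbp7 by 0.69 (0.41 to 0.98), while Gbp3 and Gbp2 differed by 0.27 (-0.07 to 0.62), within counting error. Over all clusters, 9 of 12 pairs of neighbouring members differed beyond counting error. No other pairs of genes were compared, so the count cannot be read as particular to these clusters. Of all genes tested, 34% had an interval above 0 and 36.5% an interval below 0.

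None of the 6 RNA sensors and RNA-modifying enzymes was called in either direction, against 21.1% (limbus) and 18.4% (cornea) of all genes. Their median log2 ratio was -0.38, and the interval lay below 0 for 5 of 6 genes, against 36.5% of all genes tested. With total-read scaling the median was -0.17, 3 genes lay on each side of 0, Adar and Ddx58 turning to 0.07 and 0.02, and the interval lay below 0 for 3 of 6, against 26.7% of all genes. Ifih1 (chr2:62595798-62646255), the sensor MDA5 of long double-stranded RNA, had 1193 cornea and 745 limbus reads, a log2 ratio of -0.58 (-0.72 to -0.45), the nearest member short of the threshold on the cornea side. Its relative Dhx58 (LGP2) had 249 and 157 reads, with a log2 ratio of -0.57 (-0.87 to -0.28), and Ddx58 (RIG-I), the sensor of short RNA with a triphosphate end, had 1755 and 1439 reads and -0.19 (-0.29 to -0.09). Eif2ak2, the kinase PKR that halts translation on binding double-stranded RNA, had 1184 and 747 reads, with a log2 ratio of -0.57 (-0.70 to -0.44). The 3 genes Ifih1, Dhx58 and Eif2ak2 thus had nearly equal ratios. Adar, which edits double-stranded RNA and so hides self RNA from these sensors, had 1397 and 1186 reads and -0.14 (-0.25 to -0.03). Zbp1, a sensor of Z-form nucleic acids that can start cell death, had 106 and 124 reads and 0.32 (-0.06 to 0.71).

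None of the 4 transcription factors that carry or amplify the signal was called, against 21.1% (limbus) and 18.4% (cornea) of all genes. Their median log2 ratio was 0.01. Irf1, which is also induced by interferon-gamma, had 7525 cornea and 7386 limbus reads, a log2 ratio of 0.07 (0.02 to 0.12). Stat2 had 678 and 747 reads, a log2 ratio of 0.24 (0.08 to 0.39), and Irf9, its partner, 904 and 818 reads and -0.05 (-0.19 to 0.09). Irf7, the factor that amplifies interferon-alpha production, had 1754 and 1335 reads, a log2 ratio of -0.30 (-0.40 to -0.19). All 4 thus lay within 1.5-fold in these libraries. Irf1, Irf7 and Irf9 share exonic bases with Gm17334, Phrf1 and Rnf31, the last of them on the same strand, so some of their reads may belong to these neighbours.

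The ISG15 system attaches a ubiquitin-like protein to others and removes it again. Isg15 (chr4:156199424-156200818), the modifier itself, had 932 cornea and 792 limbus reads, a log2 ratio of -0.14 (-0.28 to -0.00086). Usp18, which removes it and restrains the interferon receptor, had 124 and 89 reads and -0.38 (-0.79 to 0.02). Trim25, a ligase that acts with RIG-I and can attach Isg15, had 5158 and 4529 reads and -0.09 (-0.15 to -0.03). All 3 had fewer normalized reads in the limbus by less than 1.5-fold, and Isg15 and Trim25 turned to 0.07 and 0.11 with total-read scaling. Parp9 and Parp14, ADP-ribosyltransferases that modulate interferon signalling, had 2437 and 1813 reads and 1345 and 1340 reads, for log2 ratios of -0.33 (-0.42 to -0.24) and 0.09 (-0.02 to 0.20).

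Among the remaining members, Xaf1 (chr11:72301629-72313733), which promotes apoptosis, was called higher in the cornea, with 302 cornea and 174 limbus reads, with a log2 ratio of -0.70 (-0.98 to -0.43). It lost this call when scaled to total reads. Tap2, a subunit of the pump that loads peptides for MHC class I, had 1109 and 1534 reads, a log2 ratio of 0.56 (0.45 to 0.68). Rtp4, a chaperone of receptors, had 298 and 208 reads and -0.42 (-0.69 to -0.16), and Ifi44 had 52 and 36 reads and -0.43 (-1.09 to 0.21). Ifi35 had 1619 and 1647 reads and 0.12 (0.02 to 0.22). With no row under the symbol Ifi27, this mixed set had 1 of 5 called, towards the cornea, against 18.4% of all genes. Its extremes, Tap2 and Xaf1, lay in opposite directions.

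**Figure D3:**
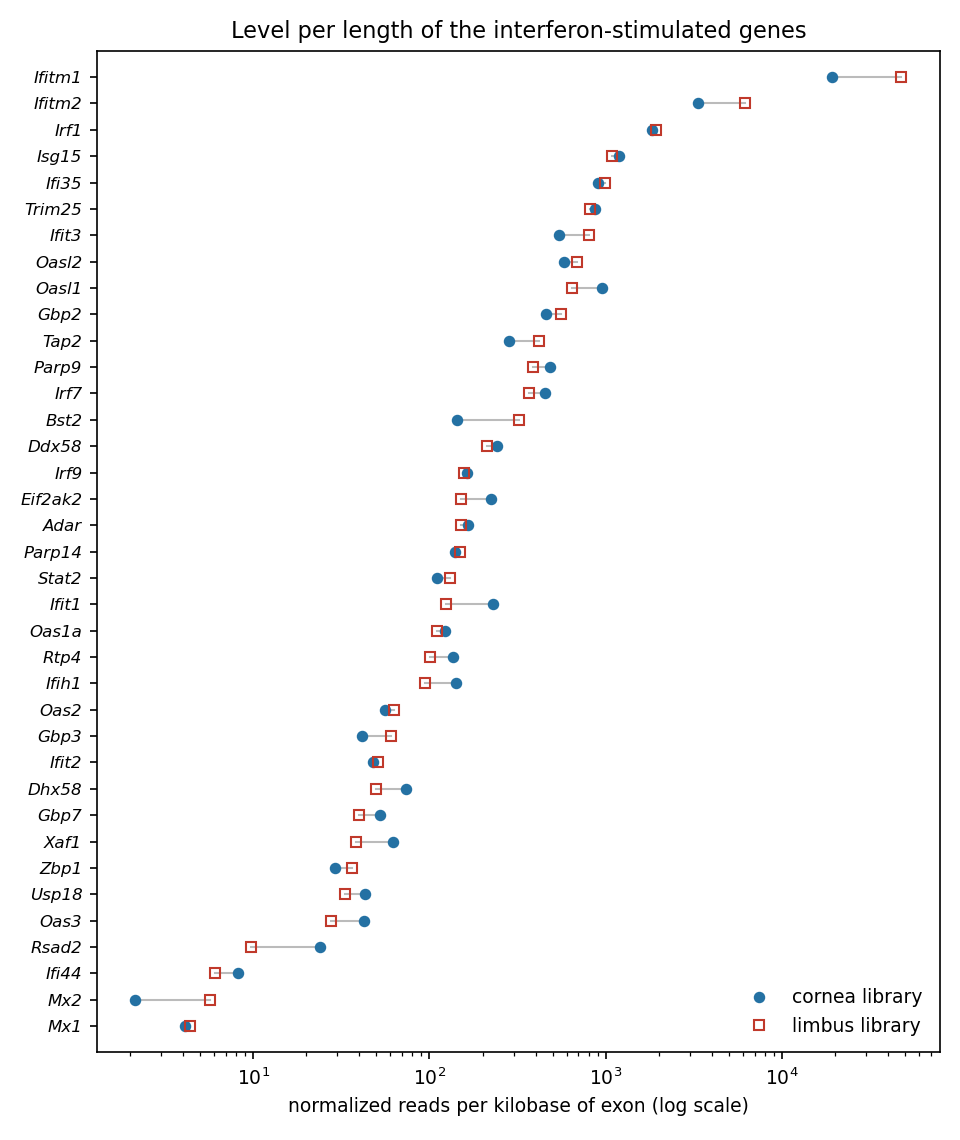
Normalized reads per kilobase of exon (log scale) of the 37 interferon-stimulated genes in the cornea library (blue circles) and the limbus library (red squares), ordered by the limbus level. Ifitm1 lies at the top, at 19120 and 47566, and the Mx genes at the bottom, between 2.14 and 5.72.

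Levels per length differed between members far more than between tissues. In normalized reads per kilobase of exon, Ifitm1 stood at 19120 (cornea) and 47566 (limbus), and Ifitm2 followed at 3329 and 6147. Irf1 (1831 and 1920), Isg15 (1193 and 1083), Ifi35 (907 and 986), Oasl1 (954 and 646) and Trim25 (867 and 814) had the next 5 levels in the cornea. In the limbus Ifit3 (807) and Oasl2 (690) stood above Oasl1. Ranked among all genes with more than 3 reads in a library, Ifitm1 lay at percentiles 99.7 (cornea) and 99.9 (limbus), and Isg15 at 94.2 and 94.0. At the other end lay Rsad2 (23.9 and 9.78), Ifi44 (8.21 and 6.07), Mx1 (4.09 and 4.37) and Mx2 (2.14 and 5.72). Bst2 moved from percentile 61.9 in the cornea to 79.9 in the limbus, and Rsad2 from 32.4 to 18.8.

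The genes upstream of the members were described over whole lists. Over all genes tested, 21.1% were called towards the limbus and 18.4% towards the cornea, or 26.2% and 12% with total-read scaling. Of 21 interferon ligand genes 19 had a row, 18 of these were listed at 0, Ifnb1 and Ifng among them, and Ifnz had 1 read in each library. Genes that every cell uses, such as the ribosomal protein gene Rpl26 and the respiratory chain gene Ndufs5 (both chosen after their values were seen), were listed at 0 as well, so a 0 in the table gives no level. Of the 10 receptor and proximal signalling genes 1 was called in each direction and the median log2 ratio was 0.03, which became 3 calls towards the limbus, 0 towards the cornea and a median of 0.24 with total-read scaling. Ifnar2, a chain of the type I receptor, had 325 cornea and 557 limbus reads, a log2 ratio of 0.87 (0.67 to 1.07), and Jak2, a kinase of the interferon-gamma receptor, 1891 and 1129 reads and -0.65 (-0.76 to -0.54). Jak1, the kinase with the most reads in the list, had 6703 and 4240 reads, a log2 ratio of -0.56 (-0.62 to -0.51).

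Of the 13 genes of nucleic acid sensing and induction 2 were called towards the limbus and 1 towards the cornea (median 0.27), and with total-read scaling 2 and 0 (median 0.48), Mb21d1 losing its call. For this list and the next, the shares of all genes were 21.1% and 18.4%, or 26.2% and 12% with that scaling. Tmem173, the adaptor STING of cytosolic DNA sensing, had 24 cornea and 160 limbus reads, a log2 ratio of 2.83 (2.21 to 3.52), whereas Mb21d1, the DNA sensor cGAS that acts just before it, had 224 and 122 reads and -0.78 (-1.11 to -0.46). Mavs, the adaptor of RIG-I and MDA5, had 1770 and 2000 reads and 0.27 (0.18 to 0.37). The 9 other regulatory factors and feedback inhibitors gave 3 calls towards the limbus and 2 towards the cornea (median 0.03), and with total-read scaling 3 and 1 (median 0.23). Socs3, an inhibitor of cytokine signalling, had 19 and 187 reads, with a log2 ratio of 3.39 (2.71 to 4.16).

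A further list of 41 interferon-stimulated genes that are not members had 35 testable genes, with 12 calls towards the limbus, 5 towards the cornea and a median of 0.17, which became 15, 2 and 0.38 with total-read scaling. For this list and the next, the shares of all genes called were 21.1% and 18.4%, or 26.2% and 12% with that scaling. Slfn5, a Schlafen family gene, had 13 cornea and 184 limbus reads, a log2 ratio of 3.92 (3.11 to 4.86), and Trim30a, of the tripartite motif family, 512 and 205 reads and -1.22 (-1.47 to -0.99). Ifitm3, the paralog of Ifitm1 and Ifitm2, had 528 and 4433 reads, with a log2 ratio of 3.17 (3.03 to 3.30), so that Ifitm1, Ifitm2 and Ifitm3 were each called higher in the limbus. The list of GTPases and antigen-processing genes induced by interferon-gamma had 19 testable genes, with 8 calls towards the limbus, 2 towards the cornea and a median of 0.61, which became 10, 2 and 0.82 with total-read scaling. Tapbp, which tethers MHC class I to the peptide pump, had the most reads there, 3484 and 4815, and a log2 ratio of 0.56 (0.50 to 0.63). Ciita, the activator of MHC class II genes, had 4 and 21 reads and 2.49 (0.92 to 4.49), while Gbp8 had 71 and 19 and -1.81 (-2.62 to -1.06). The leukocyte marker list was also higher in the limbus, as given above, with the MHC class II chaperone gene Cd74 at 413 and 3823 reads, and its part in them was not tested.

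**Figure D4:**
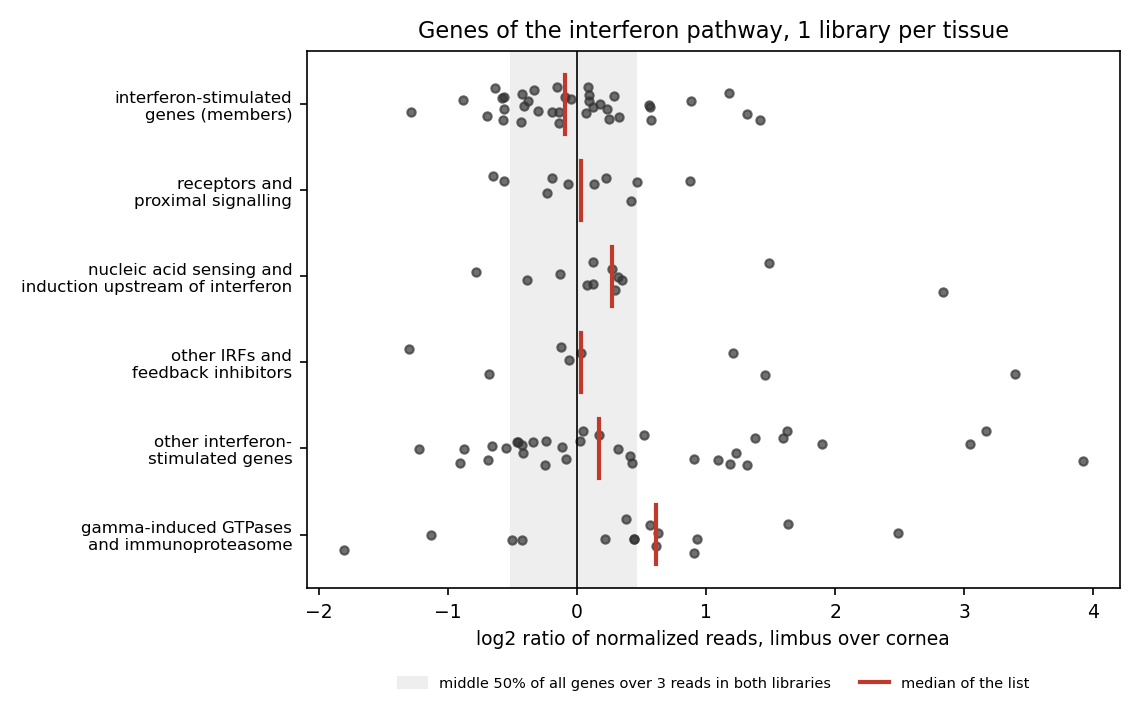
Log2 ratios, limbus over cornea, of the members and of 5 other lists of interferon pathway genes, 1 library per tissue, with the grey band marking the range between the quartiles of the 13862 genes over 3 reads in both libraries. Points are genes over 3 reads in both libraries, red lines are list medians that also count 7 genes not drawn, each taken as 3 reads where a library had fewer; the medians run from -0.09 for the members to 0.61 for the gamma-induced list.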

How the data were processed

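Per the methods, the authors trimmed adaptors, mapped the stranded total RNA reads to GRCm38 (mm10) with CLC Genomics Workbench and normalized by the trimmed mean of M-values. Whether counting used strand is not given in the sources used here. The authors deposited 1 table of the comparison: per gene a normalized signal averaged over the libraries, a log2 fold change and its error, and p-values. The p-values were not used, nor was an accession column, since of 34787 accessions found in RefSeq only 2 belonged to the gene named. Of 40904 rows, 17484 without a gene name were left out.

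The signal of each of 17442 genes with a mean above 0 was resolved into whole reads per library (size factors 1.0337 for the cornea and 0.9674 for the limbus). Where several pairs gave the same mean (33 members), the pair whose modelled fold change and error lay closest to the deposited ones was taken. The fit was within 0.001 (log2) for 17422 genes, and for members the next pair scored at least 63.7 times worse. In data simulated from the same model and size factors, the reads of 17044 of 17046 genes were recovered exactly. Such data cannot show whether the model holds for the deposited values. The calling rule, applied to the simulated and not the recovered reads, called 199 of 200 changed genes in their direction. These genes were changed by 2-fold or more and drawn from those with a mean of at least 50. The count therefore cannot show how the rule performs near 1.5-fold or at few reads. Reads are thus derived values. They totalled 26104317 (cornea) and 21182025 (limbus).

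Intervals are exact Clopper-Pearson intervals of the share of reads from the limbus, and for pairs of genes exact conditional intervals (a normal approximation for Ifitm1 with Ifitm2). A library at 3 reads or fewer was taken as 3. No p-value was computed. Positions and exon lengths are from GENCODE vM21. All members are named; of each other list, the gene with the most reads and the called genes with the largest ratios over 3 reads in each library. Some genes of the lists that this rule would name are not reported here. The members and lists were chosen with earlier results of these data known. Python 3.11.15, numpy 2.4.6, scipy 1.17.1 and pandas 2.3.3 were used.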

Additional observations from a re-analysis of the deposited data

How the results depend on the processing

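Scaled to total reads, calls numbered 7 for the limbus and 2 for the cornea, and the median log2 ratio was 0.11: Gbp3, Ifit3 and Tap2 gained a call, and Oas3 and Xaf1 lost theirs, since every ratio moved by 0.21. Centred on the median of the genes over 3 reads in both libraries, 7 were called for the limbus (the same 3 added) and 3 for the cornea (Oas3 lost). By trimmed mean of M-values 5 and 4 were called, with Ifit3 the gene added, against 21.4% and 17.8% of all genes. Counting any fold whose interval excluded 0 gave 12 and 16, against 34% and 36.5% of all genes, and 2-fold gave 3 and 1, against 15.8% and 7.83%. Among the 4 members whose mean allows 1 pair of reads 1 was called each way, as fewer genes were tested. Keeping the 21 members that share no exonic base with another gene, an alternative added after the values were seen, gave a median of 0.088. A pseudocount of 1 and filters at a mean of 10 or 50 left the median below 0 and the counts within 1.5 times. These settings could not reverse a called direction, since a call needs 1.5-fold and the largest shift of a log2 ratio was 0.21.

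No paired analysis was possible because the table holds no values for numbered samples, and no replicate could be left out with 1 library per tissue. Depth limited Mx2, Mx1, Ifi44 and Rsad2 most: their limbus libraries held 20, 16, 36 and 41 reads, and their intervals were the widest of the members.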
